A study of Mus musculus with 5 samples.

Results

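The 10 genes described here carry out antigen presentation by major histocompatibility complex (MHC) class II in the mouse: H2-Aa, H2-Ab1, H2-Eb1, H2-DMa, H2-DMb1, H2-DMb2, Cd74, Ciita, Ctss and Ifi30. They were chosen by name for their roles, with earlier results of these data known, from 49246 genes with a value in every library. All 10 were present and all 10 passed the filter on low values, a mean of at least 1 FPKM over the 5 libraries. FPKM is a fragment count scaled to transcript length and library size, so levels can be compared between genes per length, and the FPKM of a gene is the sum over its transcripts.

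Class II molecules are pairs of an alpha and a beta chain that show peptides from engulfed material to CD4+ T cells. The chains pair in the endoplasmic reticulum with the invariant chain, which blocks the peptide groove and guides the complex to late endosomes. There proteases, above all cathepsin S, trim the invariant chain to a short fragment, CLIP, which the H2-DM pair exchanges for antigen peptides. The coactivator CIITA switches on the class II, H2-DM and invariant chain genes together, through factors bound to the X and Y boxes of their promoters.

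RNA was sequenced from bone marrow-derived macrophages of wild-type C57BL/6 mice, grown from marrow for 6 days. In the first group (3 libraries, replicates 3, 4 and 5) the cells had received 30 µM CBR-5884, which blocks PHGDH, the enzyme that starts serine synthesis from glucose, before 10 ng/ml interleukin 4 (IL-4) for 24 h. In the second group (2 libraries, replicates 3 and 5) solvent took the place of the inhibitor, with the same IL-4. IL-4 drives the alternative (M2) macrophage state and was present in both groups, and cells without it were not analysed here. The labels name 2 differentiation media, with CSF1 or with L929 supernatant, without saying which served these cells. Separate animals or cultures are not stated for the replicates either, so p-values measure only the spread among these 5 libraries, possibly a technical one.

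The deposited coverage implies 30230000 to 30700000 fragments per CBR-5884 library and 28310000 to 28850000 per solvent library. The labels' protocol gives 96% of the differentiated cells as positive for both F4/80 and CD11b, surface proteins of macrophages, as 1 figure for the preparation and not per library. The cells carried macrophage markers: Cd68, a lysosomal membrane protein of macrophages, was at 1334, 1292 and 1306.5 FPKM with CBR-5884, against 1148 and 1149.7 FPKM with solvent. None of 7 macrophage markers passed the test, and they did not share a direction: 4 were higher and 3 lower with CBR-5884. Of 10 dendritic cell markers 8 had a mean below 1 FPKM, among them Flt3, Zbtb46 and Ccr7, while Itgax and Batf3 were abundant. Of the B cell markers, Cd22 exceeded that level, and Cd79a, Ms4a1 and Pax5 did not pass 0.108 FPKM in any library. In bulk RNA of this kind, fewer cells of a type and less RNA per cell cannot be told apart.

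None of the 10 genes passed the test between CBR-5884 and solvent. Over all 10770 genes tested, limma with Benjamini-Hochberg adjustment called 24 at an adjusted p below 0.05, or 0.223% of genes: 19 lower (0.176%) and 5 higher (0.0464%) with CBR-5884. Of the 10 genes, 8 had a negative log2 fold change, against 55.7% of all genes tested, and only Ctss and Ifi30 had a positive one. The median log2 fold change was -0.27 over the 10 genes and -0.03 over all genes tested. At an unadjusted p below 0.05, 2 of the 10 were lower, H2-DMa and H2-DMb2, and none was higher, against 12.4% and 7.24% of all genes (1334 lower and 780 higher). On the TPM scale (levels rescaled to a common total) that split was 945 lower and 1143 higher, after quantile normalization 945 and 1163, and with median ratio size factors 1001 and 1091; the 8 genes kept a negative sign under each. In 4 genes, H2-Ab1, Cd74, H2-DMa and H2-DMb2, every CBR-5884 library lay below both solvent libraries, an arrangement found in 24.9% of all genes. Log2 fold changes are CBR-5884 minus solvent, taken on log2(FPKM + 1), and SE is the standard error from limma; the scale understates the change of low genes.

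Promoters are shown first, since CIITA acts on the class II, H2-DM and invariant chain genes through these boxes. Whether the boxes bear on the levels in these libraries was not tested. RefSeq promoter windows (GRCm38.p6) were found for 7 of the 10 genes, and H2-Ab1, Cd74 and Ciita had no entry. RefSeq start sites can differ from the GENCODE gene starts given below. The H2-DMb2 window lies inside those gene coordinates, and the H2-DMb1 window runs into them. Printed below are the 250 bases before the start site of the 4 genes whose window held both boxes in order, 5′ to 3′, with capitals marking the X box letters (CTNNNAAC) and the Y box letters (TGATTGG).

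H2-Aa (chr17:34287824-34288073, minus strand): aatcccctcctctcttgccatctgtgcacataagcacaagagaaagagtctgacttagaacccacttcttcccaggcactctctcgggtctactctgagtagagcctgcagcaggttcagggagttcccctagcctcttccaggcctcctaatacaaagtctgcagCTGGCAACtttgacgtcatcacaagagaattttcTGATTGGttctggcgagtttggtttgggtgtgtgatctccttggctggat
H2-Eb1 (chr17:34305617-34305866, plus strand): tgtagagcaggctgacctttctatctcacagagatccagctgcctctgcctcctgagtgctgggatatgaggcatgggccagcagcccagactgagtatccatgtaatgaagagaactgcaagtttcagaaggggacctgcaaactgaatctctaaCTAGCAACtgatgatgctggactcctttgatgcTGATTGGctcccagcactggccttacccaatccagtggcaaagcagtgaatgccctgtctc
H2-DMb1 (chr17:34152941-34153190, plus strand): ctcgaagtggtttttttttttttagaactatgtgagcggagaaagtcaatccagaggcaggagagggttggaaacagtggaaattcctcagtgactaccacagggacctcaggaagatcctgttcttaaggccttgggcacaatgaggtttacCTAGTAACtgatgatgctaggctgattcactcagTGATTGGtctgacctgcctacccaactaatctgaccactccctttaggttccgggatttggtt
H2-DMb2 (chr17:34144999-34145248, plus strand): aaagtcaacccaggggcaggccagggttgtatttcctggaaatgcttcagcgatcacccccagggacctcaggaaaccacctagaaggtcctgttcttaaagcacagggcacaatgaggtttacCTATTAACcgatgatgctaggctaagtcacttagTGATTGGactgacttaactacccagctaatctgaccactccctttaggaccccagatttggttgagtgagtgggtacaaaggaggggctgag

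The boxes stood 26 bases apart in H2-Aa, H2-DMb1 and H2-DMb2 and 25 bases apart in H2-Eb1. Both strands were searched, with 15 to 30 bases allowed between the boxes, so the motifs could not overlap. The letters were chosen after these promoters had been read, so their presence in the 4 windows is a description. The ordered pair stood in 33 of 32851 promoter windows of the same length (0.1%), the X box letters alone in 35.7% and the Y box letters alone in 7.23%. The windows of Ctss and Ifi30 held the X box letters without the Y box letters, and neither of the 2 H2-DMa windows held the Y box letters.

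H2-Aa and H2-Ab1 encode the alpha and beta chains of I-A, the class II molecule that C57BL/6 mice display. H2-Aa (chromosome 17, 34282744 to 34287823, minus strand, GRCm38) was at 631, 938 and 715 FPKM with CBR-5884 (replicates 3, 4 and 5, an order kept below), against 923 and 967 FPKM with solvent (replicates 3 and 5). CBR-5884 replicate 4 lay between the solvent libraries, and replicates 3 and 5 lay below both. The means were 762 ± 159 FPKM with CBR-5884 (SD, n = 3) and 945 ± 31.1 FPKM with solvent (SD, n = 2). This is a log2 fold change of -0.33 (SE 0.18, limma adjusted p = 0.388).

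H2-Ab1 (chromosome 17, 34257689 to 34269419, plus strand) was at 362, 538 and 409.85 FPKM with CBR-5884, against 596 and 579 FPKM with solvent. The groups did not overlap, although replicate 4 came within 8.4% of the solvent mean. It had a log2 fold change of -0.45 (SE 0.18, 95% interval -0.93 to 0.03, limma adjusted p = 0.281).

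H2-Eb1 encodes the beta chain of the second class II molecule, I-E. C57BL/6 mice carry a defective alpha chain gene for I-E, so this beta chain has no regular partner at the cell surface. The annotated alpha gene, H2-Ea-ps, was listed at 0 in all 5 libraries. H2-Eb1 (chromosome 17, 34305867 to 34316674, plus strand) was at 332, 479.5 and 389 FPKM with CBR-5884, against 452 and 499.9 FPKM with solvent. Thus the RNA for the beta chain without a partner stood at 0.759 to 0.948 times the H2-Ab1 level over the libraries, and protein was not measured here. Replicate 4 again lay between the solvent libraries. The log2 fold change came to -0.27 (SE 0.17, limma adjusted p = 0.446). In every library but solvent replicate 3, the sum includes a short 3′ transcript that Cufflinks assembled on its own, at 21.5 to 28.7 FPKM, and from reference transcripts alone the log2 fold change was -0.34 (limma adjusted p = 0.503).

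Cd74 encodes the invariant chain. It lies on chromosome 18 (60803848 to 60812652, plus strand), apart from the class II genes, and it was second in level to Ctss among the 10 genes. It was at 1707, 2549.6 and 2042 FPKM with CBR-5884, against 2767 and 2857 FPKM with solvent. All CBR-5884 libraries lay below both solvent libraries, replicate 4 by the least. The means were 2099.5 ± 424 FPKM with CBR-5884 (SD, n = 3) and 2812 ± 63.3 FPKM with solvent (SD, n = 2), with a log2 fold change of -0.44 (SE 0.18, limma adjusted p = 0.283).

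Cd74 is made in a short and a long form. The transcript of the long form holds an extra exon of 192 nt (exon 7 of 9, chromosome 18, 60811294 to 60811485), which encodes 64 residues; the added domain is known to bind cathepsins. This transcript made up 32.7%, 34.9% and 33.0% of the Cd74 level with CBR-5884, against 35.1% and 35.5% with solvent. The shares did not overlap but differed by little, and the exact permutation p was 0.2 (two-sided). With 3 libraries against 2, no such test can give a p below 0.1.

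**Figure D1:**
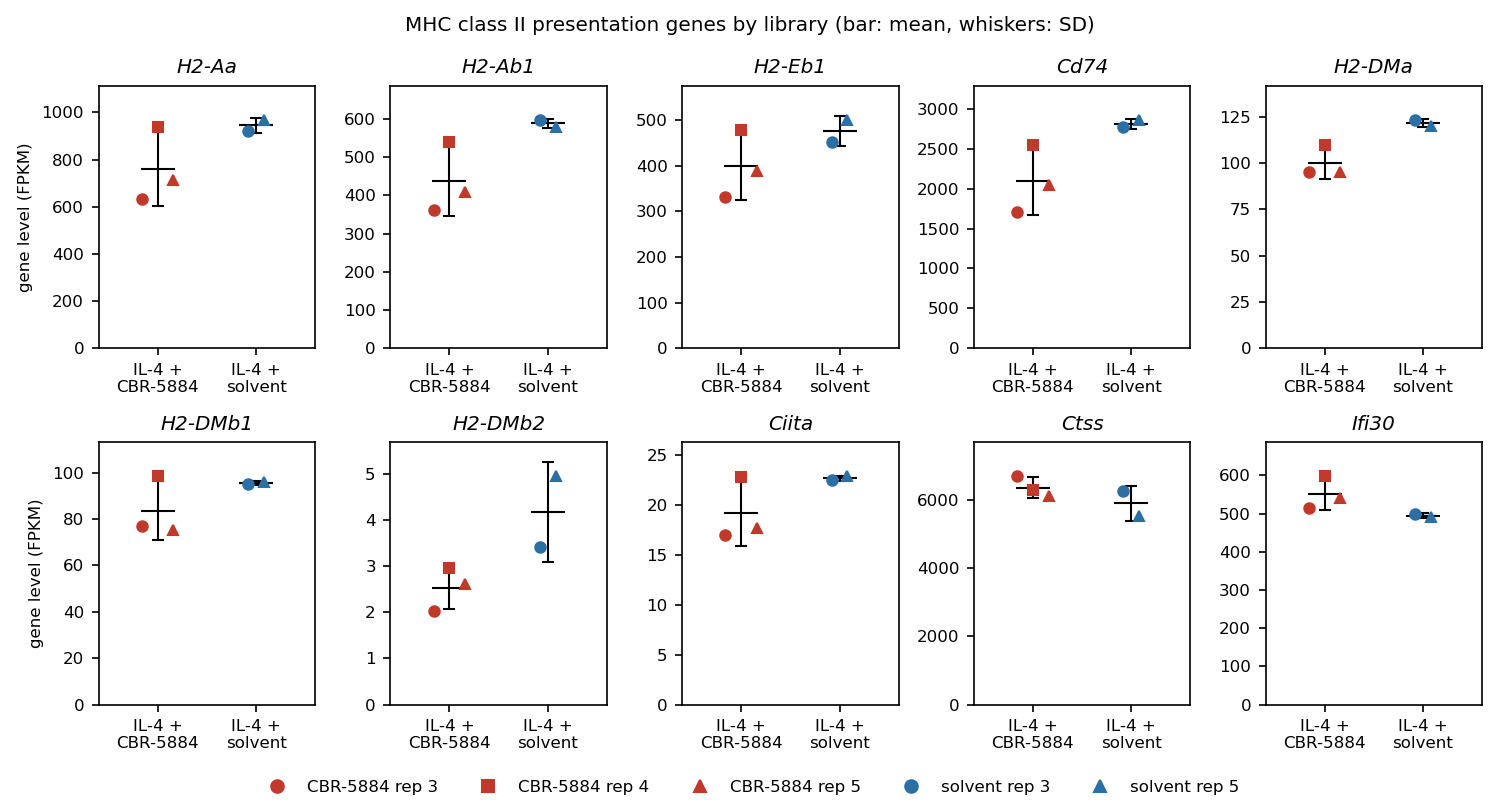
Level of each of the 10 genes in FPKM (vertical axis, from 0, scaled per gene) in the 3 CBR-5884 libraries (left) and the 2 solvent libraries (right), with the mean and SD. For the class II chains, Cd74, H2-DMb1 and Ciita, CBR-5884 replicate 4 (square) stands at or near the solvent libraries and replicates 3 and 5 below them; Ctss and Ifi30 have higher means with CBR-5884.

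H2-DMa, H2-DMb1 and H2-DMb2 encode the chains of H2-DM, the peptide exchange factor, whose alpha chain pairs with either beta chain. H2-DMa (chromosome 17, 34119541 to 34139101, plus strand) was at 95.2, 109.8 and 94.9 FPKM with CBR-5884, against 123.1 and 120.1 FPKM with solvent. The groups did not overlap, and it had the smallest unadjusted p of the 10 genes (log2 fold change -0.28, SE 0.08, 95% interval -0.50 to -0.07, limma adjusted p = 0.189). Exons of H2-DMa share 360 nt with Brd2 on the opposite strand, but the H2-DMa transcript listed in the files shares none.

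H2-DMb1 (chromosome 17, 34153072 to 34160230, plus strand) was at 77.1, 98.4 and 75.3 FPKM with CBR-5884, against 95.1 and 96.2 FPKM with solvent. Here replicate 4 was the highest of the 5 libraries (log2 fold change -0.20, SE 0.13, limma adjusted p = 0.456). H2-DMb2 (chromosome 17, 34143307 to 34151555, plus strand) was the lowest of the 10 genes, at 2.04, 2.96 and 2.63 FPKM with CBR-5884, against 3.42 and 4.95 FPKM with solvent, and the groups did not overlap. It had a log2 fold change of -0.54 (SE 0.19, limma adjusted p = 0.236), which was -0.33 without solvent replicate 5, -0.76 without solvent replicate 3 and -0.28 at a pseudocount of 5. Coverage implies only 83 to 120 reads per CBR-5884 library and 133 to 189 per solvent library behind these values. They are also uncertain because the spliced transcripts of H2-DMb1 and H2-DMb2 were 93.9% identical over 1255 aligned bases, and 18.8% of the windows of 75 bases of H2-DMb2 occur unchanged in H2-DMb1. H2-DMb1 stood 28.7 to 37.9 times above H2-DMb2 with CBR-5884 and 19.4 and 27.8 times above it with solvent.

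Ciita encodes the coactivator. It lies on chromosome 16 (10480059 to 10528418, plus strand) and was at 16.9, 22.8 and 17.6 FPKM with CBR-5884, against 22.5 and 22.8 FPKM with solvent. The value of replicate 4 fell between the solvent values, and replicates 3 and 5 lay below both (log2 fold change -0.24, SE 0.14, limma adjusted p = 0.408). Ciita has several promoters that different cell types use. The reference transcript listed, Ciita-201, gave 42.1%, 52.4% and 55.2% of the gene's level with CBR-5884 and 49.0% and 54.1% with solvent. The rest came from transcripts that Cufflinks assembled. In each library 1 or more of these had a first exon ending at 10480426, the end of the most upstream annotated first exon. In CBR-5884 replicate 3 another, at 2.40 FPKM, had a first exon ending downstream, at 10493874. No split of the level between start sites was tested. The listed transcript shares 111 nt with Dexi on the opposite strand, which was listed at 0 in all 5 libraries.

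**Figure D2:**
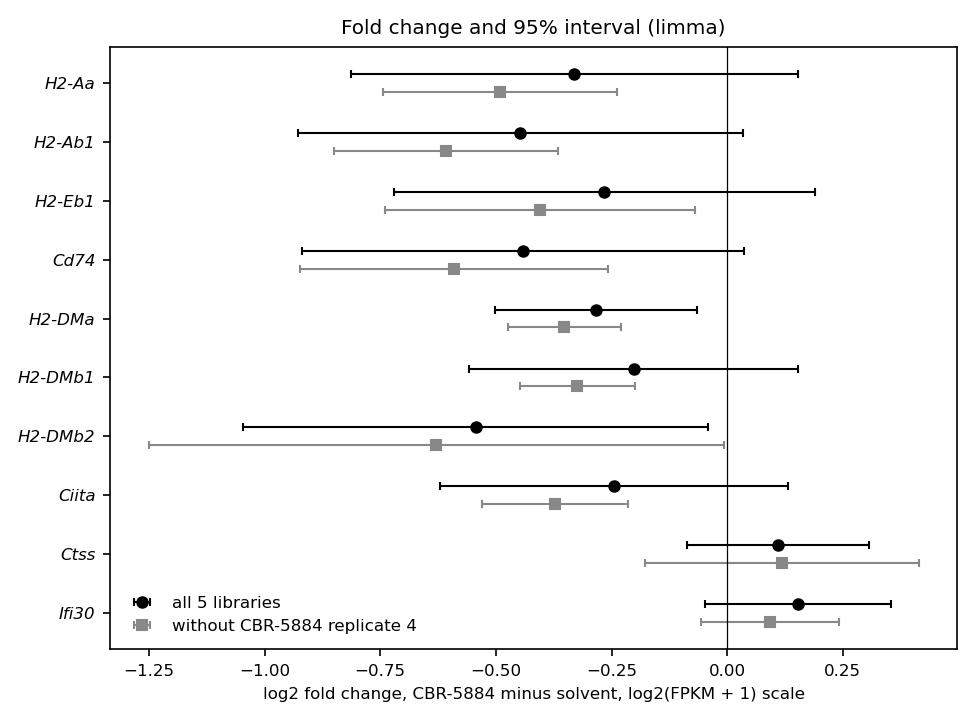
Log2 fold change of each gene, CBR-5884 minus solvent, on the log2(FPKM + 1) scale (horizontal axis), with limma's 95% interval. Circles are from all 5 libraries and squares from the 4 without CBR-5884 replicate 4. That replicate was the highest CBR-5884 library in 9 of the 10 genes. With all libraries only the intervals of H2-DMa and H2-DMb2 leave out 0, and without replicate 4 those of 8 genes do. At an unadjusted limma p below 0.05, 10.6% of all genes were lower without replicate 4. Without CBR-5884 replicate 3 or replicate 5 instead (not drawn), 0 of the 10 genes had such a p, against 994 and 1147 of all 10770 genes lower.

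Ctss and Ifi30, which act on the cargo in the endosome, had a log2 fold change of the opposite sign to the other 8. Ctss encodes cathepsin S, a main protease in trimming the invariant chain. It was the most abundant of the 10 genes (chromosome 3, 95526786 to 95556403, plus strand), at 6682, 6282 and 6099 FPKM with CBR-5884, against 6254 and 5538 FPKM with solvent. The groups overlapped (log2 fold change 0.11, SE 0.07, limma adjusted p = 0.464), and the log2 fold change was 0.022 without solvent replicate 5 and 0.197 without solvent replicate 3. Ifi30 encodes GILT, a thiol reductase that opens disulfide bonds of antigens. It lies on chromosome 8 (70762774 to 70766663, minus strand) and was at 514, 597 and 542 FPKM with CBR-5884, against 499 and 490.1 FPKM with solvent. All CBR-5884 libraries lay above both solvent libraries, as in 16.6% of all genes (log2 fold change 0.15, SE 0.08, limma adjusted p = 0.35). In solvent replicate 5, 13.2% of the Ifi30 level came from an assembled transcript, and from reference transcripts alone the log2 fold change was 0.25 (limma adjusted p = 0.404). Exons of Ifi30 share 85 nt with 6330537M06Rik on the opposite strand, which was listed at 0.

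The coefficient of variation was larger over the 3 CBR-5884 libraries than over the 2 solvent libraries for 8 of the 10 genes. The share of all genes with this order was not computed, and an SD from 2 libraries is itself uncertain, so the count is a description. The coefficient of variation of H2-Aa, H2-Ab1, H2-Eb1 and Cd74 was 18.7% to 20.8% over the CBR-5884 libraries and 2.06% to 7.06% over the solvent libraries. For H2-DMb2 it was 18.4% with CBR-5884 and 25.8% with solvent, and for Ctss 4.69% with CBR-5884 and 8.59% with solvent. Replicate 4 was the highest CBR-5884 library in 9 of the 10 genes, all but Ctss, and in 37.3% of the tested genes above 0 in every library. The ratio of replicate 4 to the mean of replicates 3 and 5 was 0.983 to 1.39 over the 10 genes, with a median of 1.31, and had a median of 1.01 over all those genes. Replicates 3 and 5 both lay below both solvent libraries in 8 of the 10 genes, all but Ctss and Ifi30, and in 32.3% of all those genes. Solvent replicate 4 was not analysed here.

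The fold changes depended on single libraries in both directions. Without CBR-5884 replicate 4 the log2 fold changes were -0.61 for H2-Ab1, -0.59 for Cd74, -0.49 for H2-Aa, -0.40 for H2-Eb1, -0.37 for Ciita and -0.32 for H2-DMb1. At an unadjusted limma p below 0.05, 8 of the 10 genes were then lower, against 10.6% of all genes. None passed after adjustment (adjusted p of at least 0.217). Without CBR-5884 replicate 3 the log2 fold changes were nearer 0, at -0.32 for H2-Ab1, -0.30 for Cd74, -0.21 for H2-Aa, -0.17 for Ciita, -0.15 for H2-DMb1 and -0.14 for H2-Eb1. H2-DMb1 was at -0.13 without CBR-5884 replicate 5, and Ifi30 at 0.09 without CBR-5884 replicate 4. Without CBR-5884 replicate 3, or without replicate 5, 0 of the 10 had an unadjusted limma p below 0.05. Of all 10770 genes, 994 were lower and 584 higher at that threshold without replicate 3, and 1147 and 625 without replicate 5. The median log2 fold change of the 10 was -0.30 without solvent replicate 3 and -0.27 without solvent replicate 5. With the replicate number as a block, which also leaves out replicate 4, 8 of the 10 were lower at an unadjusted limma p below 0.05, against 9.38% of all genes.

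**Figure D3:**
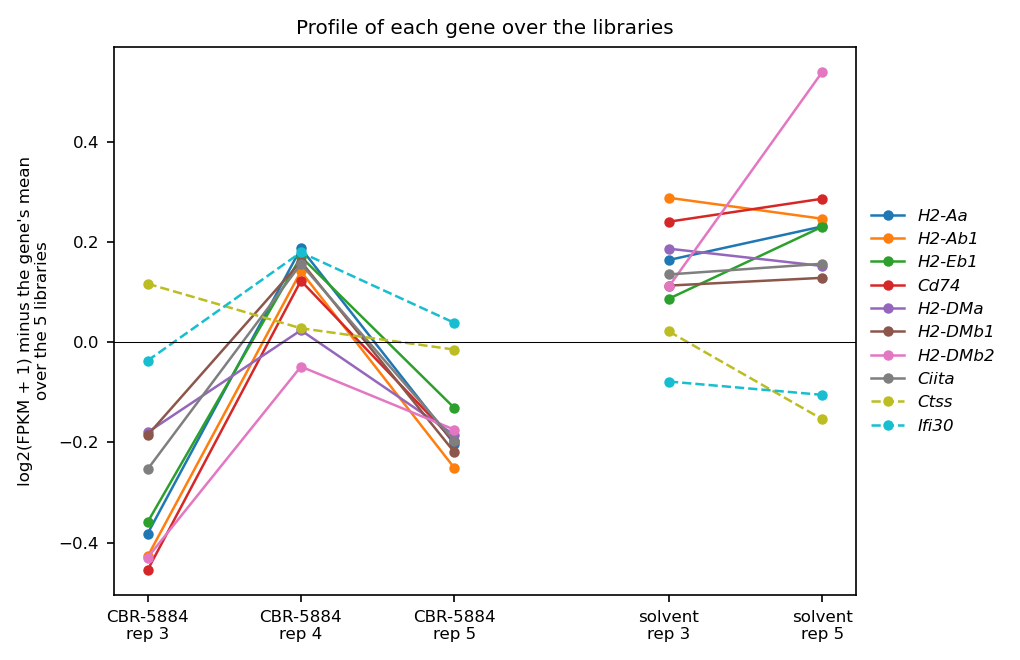
Log2(FPKM + 1) of each gene in each library, minus the gene's mean over the 5 libraries (vertical axis, log2 units); lines join the values of 1 gene and imply no order of replicates. The 8 solid lines peak at CBR-5884 replicate 4 within that group and lie above 0 in both solvent libraries; of the dashed lines, Ifi30 also peaks at replicate 4 but lies below 0 with solvent, and Ctss does not peak there.

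Ratios within a library do not depend on how libraries are scaled. H2-Aa over H2-Ab1 was 1.74, 1.74 and 1.75 with CBR-5884, against 1.55 and 1.67 with solvent. The ratio thus varied little among the CBR-5884 libraries (SD 0.0016, n = 3), although the level of both chains in replicate 4 was 1.39 times the mean of the other two. Cd74 over the sum of both chains was 1.72, 1.73 and 1.81 with CBR-5884 and 1.82 and 1.85 with solvent. H2-Eb1 over H2-Ab1 was 0.915, 0.891 and 0.948 with CBR-5884 and 0.759 and 0.863 with solvent. H2-DMa over the sum of both H2-DM beta chains was 1.203, 1.08 and 1.22 with CBR-5884 and 1.249 and 1.19 with solvent. Ctss over Cd74 was 3.91, 2.46 and 2.99 with CBR-5884 and 2.26 and 1.94 with solvent. Of 9 ratios and shares computed, H2-Aa and H2-Eb1 over H2-Ab1 had an exact permutation p (two-sided) of 0.1, the smallest possible here, Cd74 over the chains and Ctss over Cd74 had 0.2, and the H2-DM ratio had 0.6. None could pass 0.05 in this design.

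**Figure D4:**
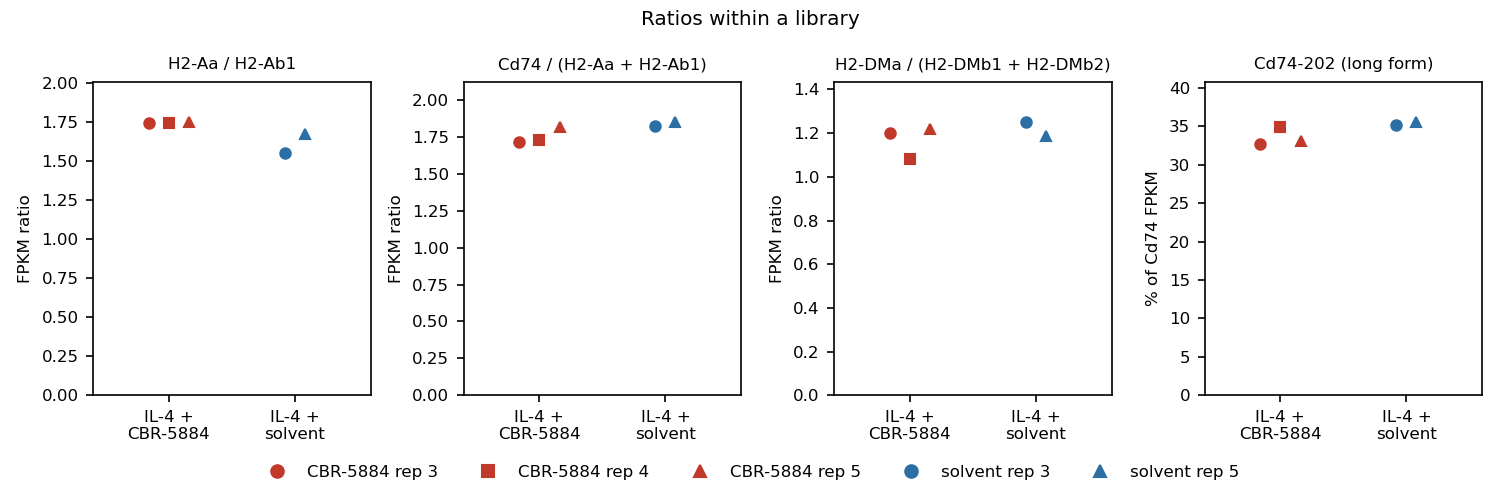
Ratios of FPKM within a library and the share of Cd74 from its long-form transcript (vertical axes, from 0) in the CBR-5884 libraries (left) and the solvent libraries (right). The ratio of H2-Aa to H2-Ab1 is 1.74 to 1.75 in the 3 CBR-5884 libraries, above both solvent libraries; the H2-DM ratio overlaps between the groups.

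Genes with the profile most like the class II chains were ranked over the 5833 genes with a mean of at least 10 FPKM. The measure was the root mean square difference, over the 5 libraries, from the mean centred log2 profile of H2-Aa, H2-Ab1, H2-Eb1 and Cd74, which itself varied by 0.26 log2 units (root mean square). The closest genes outside the 10 were Pdgfb (0.057), AA467197 (0.060), Fbl (0.064), Myc (0.066) and Anapc13 (0.066). Pdgfb, which encodes a growth factor chain, was at 15.7, 22.0 and 17.9 FPKM with CBR-5884, against 24.1 and 22.8 FPKM with solvent. Myc, a transcription factor of cell growth, was at 12.1, 18.4 and 15.2 FPKM with CBR-5884, against 21.5 and 21.01 FPKM with solvent. Ciita, which the profile did not use, ranked 15, H2-DMb1 63 and H2-DMa 90, while Ifi30 ranked 3288 and Ctss 4297. H2-DMb2, with a mean below 10 FPKM, was not ranked.

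The other genes of the route gave no called gene. The remaining class II chain genes, H2-Oa, H2-Ob and H2-Eb2, were below 0.4 FPKM in every library and were not tested. All 7 factors that bind class II promoters were tested and none passed, with 3 positive and 4 negative log2 fold changes (median -0.03). Creb1, a factor of the X box, was at 13.2, 13.8 and 13.5 FPKM with CBR-5884, against 11.9 and 11.7 FPKM with solvent (limma adjusted p = 0.176). Nfya, a subunit of the Y box factor NF-Y, was at 67.2, 62.9 and 54.3 FPKM with CBR-5884, against 61.1 and 50.7 FPKM with solvent (limma adjusted p = 0.604).

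Of the regulators upstream of Ciita and the interferon gamma route, 10 of 11 were tested and none passed, with 3 positive and 7 negative (median -0.04); Irf8 was not analysed here. Ifngr1, a chain of the interferon gamma receptor, was at 104.4, 107.3 and 105.5 FPKM with CBR-5884, against 128.9 and 130.1 FPKM with solvent (log2 fold change -0.29, limma adjusted p = 0.101). Its sign turned to 0.38 when assembled transcripts were left out. Spi1, the myeloid transcription factor PU.1, was at 166.9, 238 and 199 FPKM with CBR-5884, against 206 and 203.9 FPKM with solvent (limma adjusted p = 0.9). Replicate 4 was the highest of all 5 libraries for Spi1, whereas for the class II chains it was the highest only within the CBR-5884 group.

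None of 10 endosomal proteases and inhibitors passed (4 positive, 6 negative, median -0.03). Ctsz, which encodes cathepsin Z, was at 989, 1029.8 and 1029.9 FPKM with CBR-5884, against 1241 and 1273 FPKM with solvent (log2 fold change -0.31, limma adjusted p = 0.101), but its sign turned to 0.28 without assembled transcripts. Ctsd, the aspartic protease cathepsin D, was the most abundant of these, at 4941, 3928 and 4108 FPKM with CBR-5884, against 4598 and 3853 FPKM with solvent (limma adjusted p = 0.908). None of 6 genes that act on class II at the membrane passed (4 positive, 2 negative, median 0.08). The tetraspanin gene Cd9 was at 947, 936 and 907 FPKM with CBR-5884, against 748 and 738 FPKM with solvent (log2 fold change 0.32, limma adjusted p = 0.0917). Cd63, another tetraspanin and the most abundant of the 6, was at 1576, 1479.8 and 1447 FPKM with CBR-5884, against 1396 and 1266 FPKM with solvent (limma adjusted p = 0.26). Cd83, chosen after its values were seen, protects class II from the ubiquitin ligase MARCH1; it was at 19.9, 17.7 and 22.1 FPKM with CBR-5884, against 32.0 and 34.2 FPKM with solvent (log2 fold change -0.71, limma adjusted p = 0.115; -1.15 from reference transcripts only).

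Among partners of the invariant chain, 3 of 4 were tested and none passed (2 positive, 1 negative, median 0.18). Cd44, its signalling partner as a receptor for MIF, was at 205, 248 and 264 FPKM with CBR-5884, against 188 and 176.5 FPKM with solvent (log2 fold change 0.38, limma adjusted p = 0.218; 0.84 from reference transcripts only). Of 6 costimulators and coinhibitors 5 were tested and none passed (3 positive, 2 negative, median 0.01). The most abundant, Cd274, which encodes the inhibitory ligand PD-L1, was at 74.9, 59.7 and 57.4 FPKM with CBR-5884, against 56.5 and 51.1 FPKM with solvent (limma adjusted p = 0.404). Of 9 other genes in or near the class II region on chromosome 17, 6 were tested and none passed (2 positive, 4 negative, median -0.15). Psmb8, an immunoproteasome subunit, was at 85.2, 81.6 and 87.3 FPKM with CBR-5884, against 92.6 and 96.7 FPKM with solvent (limma adjusted p = 0.219). Tapbp, tapasin of the class I route, was at 213.8, 196 and 227 FPKM with CBR-5884, against 216 and 203 FPKM with solvent (limma adjusted p = 0.931). In neither was replicate 4 the highest CBR-5884 library, which it was in only 37.3% of the tested genes above 0 in every library.

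Markers of other cell types are given beside these results, and their part in them was not tested. The summed level of the 10 dendritic cell markers was 373 to 498 FPKM with CBR-5884 and 496 to 505 FPKM with solvent, most of it from Itgax, the integrin chain CD11c. Itgax was at 328, 432 and 380.2 FPKM with CBR-5884, against 425 and 423 FPKM with solvent (limma adjusted p = 0.508). Batf3, a transcription factor of dendritic cells, was at 44.0, 64.9 and 58.2 FPKM with CBR-5884, against 69.2 and 78.8 FPKM with solvent (log2 fold change -0.42, limma adjusted p = 0.31; -0.83 from reference transcripts only). In both, replicate 4 was the highest CBR-5884 library, as in the class II chains and in 37.3% of the tested genes above 0 in every library. The same held for Ccr2, Col1a1, Col1a2 and S100a8 among the genes named below, but not for Cd22 and S100a9. The B cell marker Cd22 was at 10.3, 9.09 and 10.6 FPKM with CBR-5884, against 9.86 and 8.66 FPKM with solvent. Ccr2, the chemokine receptor of monocytes, fell to 3.57 ± 0.13 FPKM with CBR-5884 (SD, n = 3), against 7.93 ± 0.37 FPKM with solvent (SD, n = 2; limma adjusted p = 0.0395), and was not called when any 1 library was left out (limma adjusted p = 0.066 to 0.189). It was the only gene above a mean of 1 FPKM of 4 monocyte markers, which summed to 3.98 to 4.63 FPKM with CBR-5884 and 8.41 to 9.53 FPKM with solvent. The 4 fibroblast markers summed to 10.7 to 17.01 FPKM with CBR-5884 and 17.8 to 18.8 FPKM with solvent. Col1a1, a collagen gene of fibroblasts, was at 4.67, 6.88 and 4.17 FPKM with CBR-5884, against 8.19 and 7.83 FPKM with solvent (limma adjusted p = 0.249). Col1a2 was at 5.33, 8.95 and 5.80 FPKM with CBR-5884, against 8.32 and 9.96 FPKM with solvent (limma adjusted p = 0.382). The 4 neutrophil markers summed to 10.3 to 12.7 FPKM with CBR-5884 and 9.38 to 19.5 FPKM with solvent, with Ly6g and Retnlg listed at 0. The neutrophil gene S100a8 was at 9.32, 10.6 and 10.0 FPKM with CBR-5884, against 10.1 and 7.03 FPKM with solvent, and S100a9 at 0.934, 0.242 and 2.67 FPKM with CBR-5884, against 9.49 and 2.35 FPKM with solvent (limma adjusted p = 0.487 and 0.322). The T cell markers Cd3d and Cd3e were listed at 0 in all 5 libraries.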

How the data were processed

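The authors deposited FPKM per transcript, 1 Cufflinks file per library. The submitters' processing notes name Bowtie2, TopHat2 and Cufflinks and the builds mm10 and GRCm38. Per the labels' protocols, libraries were directional and read from 1 end (75 bp); how the estimates used strand, and the annotation, are not given in those sources. The files list Ensembl reference transcripts and transcripts assembled from the reads. GENCODE M21 gave the gene of each reference transcript (99.5% matched), and assembled transcripts of at least 200 nt to the gene on their strand that covered at least 50% of their exonic bases; the rest, 64.0% to 70.3% of the summed FPKM but 8.55% to 10.2% of the covered bases, were left out.

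Gene FPKM was summed, and the 10770 genes with a mean of at least 1 were fitted together with limma 3.58.1 in R 4.3.3 on log2(FPKM + 1), using lmFit and eBayes with trend; tests were two-sided, p-values were adjusted by Benjamini-Hochberg over all genes, and 0.05 was the threshold. The procedure was tested on simulated data. Coordinates are 1-based M21 positions. Fragments and reads were implied from the deposited coverage, not counted. The members and gene lists were chosen with earlier results of these data known. Named genes outside the 10 were, per list, those called, the one with the smallest p and the one with the highest mean; Cd83 is an exception. A B cell marker and the sum of its list are not reported here. Alternatives covered the pseudocount, filter, scaling, transcripts used, variance trend, each library left out and a replicate block.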

Additional observations from a re-analysis of the deposited data

How the results depend on the processing

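None of the 10 genes was called in any of the 16 alternatives (limma adjusted p = 0.168 to 0.933), and each kept the sign of its log2 fold change in every alternative that tested it; at an unadjusted limma p below 0.05 2 of the 10 were lower with all libraries, and 0 to 8 over the alternatives. H2-DMb2 was not tested at a mean of at least 5 FPKM. At the same unadjusted threshold, 12.4% of all genes were lower with all libraries. The share was 10.6% without CBR-5884 replicate 4 and 9.38% with the replicate block, where 8 of the 10 were lower. The number of genes called over all genes was 24, and moved to 38 without a filter, 9 at a mean of at least 5 FPKM, 41 with reference transcripts only and 41 with the most abundant reference transcript. It was 21 to 94 when 1 library was left out, with 94 without solvent replicate 3 and 64 without solvent replicate 5. With the replicate number as a block, on the 4 libraries numbered 3 and 5, it was 3. There 8 of the 10 genes had an unadjusted limma p below 0.05, all lower, against 9.38% of all genes. The block uses the same libraries as the fit without CBR-5884 replicate 4 and gave the same log2 fold changes, so the 2 fits are not independent. Deviations of same-numbered libraries from their group means correlated at 0.07 and 0.08. With 2 solvent libraries the solvent deviations mirror each other, so these values cannot decide whether equal numbers mark a shared animal or culture.

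Among genes outside the 10, the sign turned with reference transcripts only or with the most abundant one for Ifngr1 (0.38 in both), Ctsz (0.28 in both) and Spi1 (0.042 in both). Without a change of sign, reference transcripts only moved Cd44 to 0.84, Cd83 to -1.15 and Batf3 to -0.83. Spi1 was at 0.0024 on the TPM scale. When 1 library was left out, the log2 fold change ran from -0.17 to 0.086 for Spi1, -0.10 to 0.16 for Ctsd, -0.034 to 0.069 for Tapbp and -0.014 to 0.45 for S100a8. Ccr2 was also not called without a filter, at a mean of at least 5 FPKM, with either reference transcript setting or with the block. With 3 libraries against 2, the 95% intervals stayed wide, from -0.81 to 0.15 for H2-Aa and from -0.93 to 0.03 for H2-Ab1.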
